A study of Mus musculus with 30 samples.

Results

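Puf60 and the proteins that bind 3′ splice sites through U2AF or U2AF-like domains were followed through a course from mouse embryonic stem cells to neurons, in wild-type cells and in lines edited at Puf60 or at Rbm38. The genes were chosen by name: Puf60, U2af1, U2af2, U2af1l4, Sf1, Rbm17, Rbm39, Rbm23 and Uhmk1, 9 genes in all. Of these, 8 had a row among the 54393 genes of the table of expression, together with 345 of the 661327 alternative splicing events. Rbm23 was not analysed here. Reads that join exons could be summed for 7 of the 8, and U2af1l4, which had no intron in the splicing table, was followed by its expression value per group and its cassette exon.

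All cells were CGR8, an established mouse embryonic stem cell line, and polyA RNA was sequenced at 3 stages. ESC stands for undifferentiated stem cells, EB8 for embryoid bodies at day 8 that had received 6 µM retinoic acid, and DIV7 for cells grown for 7 days after plating as neural progenitors from such bodies and labelled as glutamatergic neurons. WT is the unedited parental line. The edited lines are clonal CRISPR-Cas9 lines. Puf60_mEx5_HOM is labelled as a homozygous deletion of Puf60 exon 5, Puf60_pEx5_HOM and Puf60_pEx5_HET as constitutive inclusion of that exon on both alleles or on 1 allele, and Rbm38KO as a deletion within Rbm38. Each of the 5 lines had 2 libraries, A and B, at each stage, which gave 30 libraries in 15 groups. The labels did not say which clone a library came from, so a p-value here weighs a difference against the spread of A and B alone, which may be technical, and a line cannot be told apart from its clones.

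At the end of an intron the spliceosome first reads a branch point, a pyrimidine tract and an AG dinucleotide. Sf1 binds the branch point, U2af2 the pyrimidine tract and U2af1 the AG, and the last pair form the U2AF dimer. U2af1l4 is a paralog of U2af1. Puf60 resembles U2af2, binds pyrimidine tracts and works with U2AF in bringing U2 snRNP to the branch point. Rbm17 and Rbm39 carry, like Puf60 and U2af2, a U2AF homology motif, a domain that docks on short peptides of Sf1, U2af2 and the U2 snRNP protein Sf3b1. Uhmk1 is a protein kinase with such a motif that phosphorylates Sf1.

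On mm10 the genes lie at chr15:76070182-76080924 (Puf60), chr17:31647081-31658892 (U2af1), chr7:5062143-5079938 (U2af2), chr7:30563301-30565365 (U2af1l4), chr19:6363690-6378030 (Sf1), chr2:11585437-11604153 (Rbm17), chr2:156147239-156180238 (Rbm39) and chr1:170193420-170215397 (Uhmk1). Exons on which splicing results turn are given next, from the GENCODE M21 transcripts on mm10, 5′ to 3′ on the transcribed strand. Puf60 exon 5, the edited exon, is 51 nt long, a multiple of 3, and is coding in Puf60-202. Skipping of the exon joins exon 4 to exon 6.

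U2af1 has a pair of alternative exons of 67 nt each, on the minus strand. The upstream one, called here the first exon, lies at chr17:31652502-31652568 and is exon 3 of the coding transcript U2af1-202. The second lies at chr17:31651646-31651712 and is exon 3 of the coding transcript U2af1-201. Their length is not a multiple of 3. The transcript that holds both and has a coding sequence, U2af1-208, is annotated as a target of nonsense-mediated decay. The exons are shown because their choice changed in Puf60_pEx5_HOM. Capitals mark the 23 of 67 positions at which they differ, and 65.7% of positions were identical.
U2af1 first exon: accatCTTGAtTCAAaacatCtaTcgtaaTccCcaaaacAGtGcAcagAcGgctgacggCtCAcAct
U2af1 second exon: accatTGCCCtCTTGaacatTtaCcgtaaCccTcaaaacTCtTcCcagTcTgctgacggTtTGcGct

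The cassette exons of U2af1l4 and U2af2, shown because their inclusion changed along the WT course, are both a multiple of 3 in length. That of U2af1l4, 96 nt at chr7:30564703-30564798 on the plus strand, is coding in 7 transcripts. That of U2af2, 45 nt at chr7:5067210-5067254 on the plus strand, is coding in 2.
U2af1l4 cassette exon: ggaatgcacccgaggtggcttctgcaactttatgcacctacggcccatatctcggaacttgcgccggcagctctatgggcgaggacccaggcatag
U2af2 cassette exon: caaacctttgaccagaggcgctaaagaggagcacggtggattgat

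Levels per gene were taken from reads that join exons (spliced reads), summed over the introns of a gene and given as CPM, reads scaled to the depth of the library. They are not scaled to length, so they compare 1 gene between groups and not genes with each other. Libraries held 23204150 to 38571969 spliced reads. Differences are on the scale log2(CPM + 1), tested with limma over 13929 genes. Rbm38 had 0 CPM in the libraries labelled Rbm38KO and group means of 84.6, 39.2 and 9.71 CPM in WT at ESC, EB8 and DIV7. Each of 6 stem cell markers was higher in every ESC library than in any later one, Pou5f1 at 1500 to 1940 CPM against at most 74.9 at DIV7. The progenitor markers Pax6, Nes and Hes5 were highest at EB8 and Fabp7 at DIV7, where it had 512.5 to 1242 CPM. Of 5 neuron markers, Tubb3, Map2, Rbfox3 and Snap25 were higher in every DIV7 library than in any earlier one, and Dcx, at 125.6 to 180.8 CPM, overlapped with EB8 (54.95 to 144.3). Among 4 glutamatergic markers Slc17a6 had 26 to 57.7 CPM at DIV7 and at most 6.6 at EB8, and Grin1 293 to 484.5 and at most 30.65. Neurod2 had at most 0.752 CPM at DIV7, and Slc17a7 had 0.0415 to 0.639 there, below its 2.14 to 5.07 at ESC. The 3 GABAergic markers were higher in every DIV7 library than earlier as well, Gad1 at 294.8 to 545.7 CPM, Gad2 at 55.7 to 119 and Slc32a1 at 46.4 to 99. Markers of other cell types varied among the DIV7 libraries. Of 4 fibroblast and smooth muscle markers Col1a1 had 73.9 to 1496 CPM there and Col1a2 65.7 to 1053, with Acta2 and Tagln at most at 8.85 and 7.15. Of 4 astrocyte markers Gfap had 7.28 to 187.5, Aldh1l1 39.2 to 212.4, Slc1a3 38.4 to 147.2 and Aqp4 at most 2.93. In bulk samples such as these, fewer cells of a type and less RNA per cell cannot be told apart.

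Exon 5 of Puf60 was examined first, since it checks the labels. Its inclusion is given as percent spliced in (PSI), the share of junction reads that include the exon, from 673 to 2577 reads a library. In WT it was 22.4 and 20.7% in the ESC libraries, 26.9 and 26.1% at EB8, and 42.9 and 44% at DIV7. The DIV7 libraries thus stood above all earlier ones, by 16.9 points over EB8 (adjusted p = 2.09e-05, read-weighted limma fit). From ESC to EB8 the difference was 4.98 points (adjusted p = 0.052). In Puf60_pEx5_HOM the exon was nearly always included, at 99 and 98.3%, 96.5 and 94%, and 94.8 and 93.2% at the 3 stages. Puf60_pEx5_HET lay between, at 49.3 and 49.2%, 54.4 and 50.2%, and 64.9 and 60.1%. Rbm38KO, at 23.4 and 22.9%, 27.6 and 24.1%, and 48.4 and 45.3%, differed from WT by -0.71 to 3.41 points, with adjusted p of at least 0.959. A fit that did not weigh events by their reads kept the exon 5 calls of Puf60_pEx5_HOM at ESC and EB8 and that of WT between EB8 and DIV7. At DIV7 it lost that of Puf60_pEx5_HOM against WT (50.5 points, adjusted p = 0.117) and that between Puf60_pEx5_HET and Puf60_pEx5_HOM (-31.5 points, adjusted p = 0.135).

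The libraries labelled as lacking the exon still gave a PSI above 0. Puf60_mEx5_HOM had 7.49 and 10% at ESC, 13 and 12.3% at EB8 and 9.83 and 12.9% at DIV7. Against WT the change was -12.8, -13.9 and -32.0 points (adjusted p = 0.0126, 0.00217 and 6.6e-07). At ESC the call was lost without WT A, WT B or Puf60_mEx5_HOM A (adjusted p = 0.0642 to 0.487). At EB8 it was lost without Puf60_mEx5_HOM B (adjusted p = 0.089). The rise in Puf60_pEx5_HET, of 27.7, 25.8 and 19.1 points (adjusted p = 5.25e-05, 0.000629 and 0.0112), lost its call at DIV7 without WT A, WT B or Puf60_pEx5_HET A (adjusted p = 0.126 to 0.475). Without the weights both lines lost the call at all 3 stages, with adjusted p of 0.463, 0.276 and 0.165 in Puf60_mEx5_HOM and 0.319, 0.325 and 0.64 in Puf60_pEx5_HET. Exon 5 is the edited exon, so these calls describe the edit.

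The reads behind that remaining inclusion came from 1 side of the exon. In Puf60_mEx5_HOM the junction of exon 4 with exon 5 had 6 and 2 reads at ESC, 1 and 3 at EB8 and 0 and 1 at DIV7. The junction of exon 5 with exon 6 had 160 and 210, 268 and 314, and 133 and 183 reads in the same libraries. In WT the range was 257 to 496 reads at the upstream junction and 392 to 573 at the downstream one. From the upstream junction alone, inclusion in Puf60_mEx5_HOM was 0.446 ± 0.295% (SD, n = 2), 0.211 ± 0.122% and 0.0909 ± 0.129%. From the downstream junction alone it was 17.4 ± 3.5%, 24.5 ± 0.97% and 22.4 ± 3.7%, against 25.6 ± 0.054%, 29.2 ± 0.31% and 47.4 ± 0.18% in WT.

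The log2 ratio of upstream to downstream junction reads was lower in Puf60_mEx5_HOM than in WT by 4.88 at ESC, 6.52 at EB8 and 6.55 at DIV7, and all 6 libraries lay below all 6 WT libraries. The mean difference was -5.98. An exact two-sided permutation test within stages gave p = 0.00926, the smallest its 216 regroupings can give, and 0.037 after adjustment over 12 such tests (3 ratios in 4 lines, chosen after the data were seen). In the other lines the mean difference was -0.149 to -0.0494 (exact p = 0.111 to 0.556). In Puf60_pEx5_HOM it was -0.20 with WT B of ESC left out (exact p = 0.00926).

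**Figure D1:**
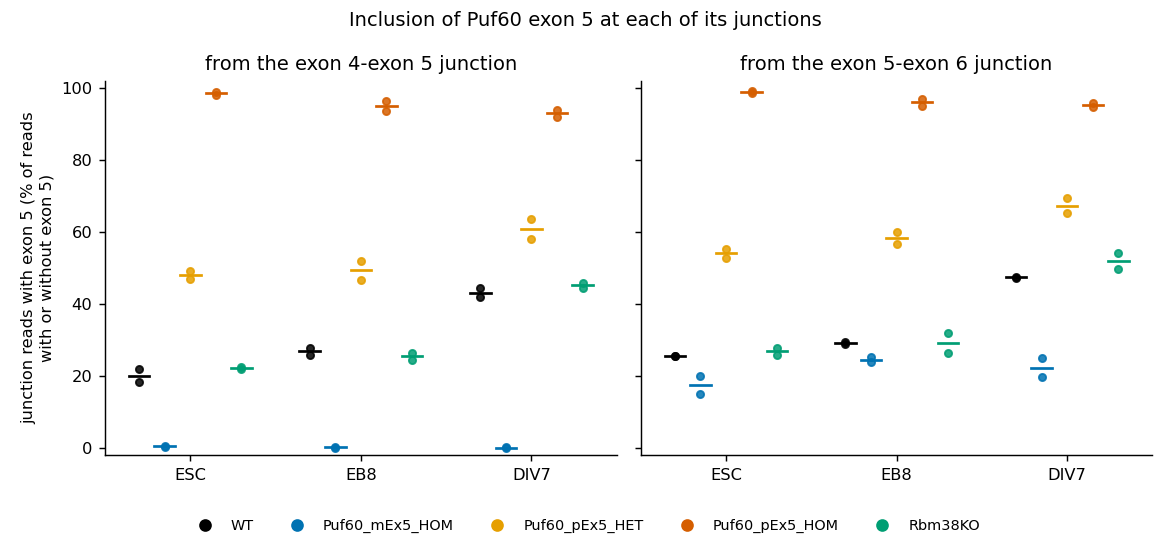
Inclusion of Puf60 exon 5 computed from reads of its upstream junction (left) and of its downstream junction (right), in percent, at ESC, EB8 and DIV7. Points are libraries and short lines are means of 2. Puf60_mEx5_HOM lies at most at 0.654% on the left and between 14.9 and 25.2% on the right.

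The intron that spans exon 5 had a higher retention in the same libraries. Retention means reads that run from the intron into a neighbouring exon, as a share of these and spliced reads. In Puf60_mEx5_HOM it was 8.54 and 18% at ESC, 13.9 and 12.9% at EB8 and 6.58 and 12.2% at DIV7. In WT it was 0.96 and 1.05%, 2.69 and 2.48%, and 2.52 and 2.5%, below every Puf60_mEx5_HOM library. At EB8 the change was 10.8 points (adjusted p = 0.000265, or 0.116 in the unweighted fit). The other groups of EB8 had means of 2.585 to 3.405%. The intron thus reached the mean PSI that the fit requires only through Puf60_mEx5_HOM, and this p lends no support of its own. At ESC and DIV7 the intron fell under the mean PSI of 5 that the fit requires and was not tested. Here too the reads were uneven: 35 to 142 reads a library ran from the intron into exon 6 and 5 to 37 from exon 4 into the intron. In WT the ranges were 8 to 28 and 3 to 12, so unevenness in this direction was not particular to Puf60_mEx5_HOM.

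Puf60 transcripts as a whole were fewer in Puf60_mEx5_HOM. Spliced reads stood at 220 and 211 CPM at ESC against 341 and 325 in WT, at 228 and 250 against 332 and 316 at EB8, and at 164 and 178 against 240 and 261 at DIV7. The groups did not overlap at any stage. The change was -0.62 ± 0.07 (SE), -0.44 ± 0.07 and -0.55 ± 0.07 on the log2 scale (limma adjusted p = 1.64e-05, 0.000194 and 8.71e-05), under the 2-fold that a call requires here. At DIV7 the adjusted p was 0.0825 when only the 10 libraries of the stage were fitted. With the 1 intron of Puf60 that had most reads, the change was -0.48, -0.29 and -0.29 (adjusted p = 0.16, 0.135 and 0.31). The authors' deposited table gave -0.55, -0.45 and -0.52 for Puf60 (FDR = 0.0184, 0.0138 and 0.0368). In WT Puf60 had 147, 137 and 105 RPKM (reads per kilobase of transcript scaled to depth, 1 value a group) in the authors' deposited table, and 106, 110 and 78 RPKM in Puf60_mEx5_HOM.

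The loss was not even along the gene. Of the 10 Puf60 introns listed, 3 lie before exon 5, 1 spans it and 6 follow it. In Puf60_mEx5_HOM the spliced reads of the introns before exon 5 were 44.3 to 53.7% of the WT level at ESC. At EB8 they were 54.9 to 57.2%, and at DIV7 51.3 to 58.5%. Those of the introns after it were 63 to 75.6%, 78.5 to 84.9% and 64.9 to 80.6% of WT. At each stage every intron before the exon was thus reduced more than any after it.

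As a ratio, reads before exon 5 over reads after it were 0.277 ± 0.012 (SD, n = 2), 0.278 ± 0.0036 and 0.297 ± 0.021 in Puf60_mEx5_HOM, against 0.384 ± 0.050, 0.403 ± 0.0058 and 0.403 ± 0.0068 in WT. This ratio too was chosen after the data were seen, so its p lends no support of its own. The log2 difference was -0.47, -0.54 and -0.44 by stage and -0.48 on average (exact permutation p = 0.00926, adjusted 0.037). It stayed between -0.53 and -0.44 when any 1 library was left out and was -0.53 against the nearest following intron alone. In the other 3 lines the mean difference was 0.026 to 0.060 (exact p = 0.352 to 0.648). In Puf60_pEx5_HOM, at 0.15, 0.17 and -0.16 by stage, it was 0.14 (exact p = 0.0463) without library A of DIV7, whose ratio of 0.303 lay within the range of Puf60_mEx5_HOM. For scale, the first 3 introns against the rest gave -0.34 to 0.18 in Puf60_mEx5_HOM against WT for the other 6 genes with intron rows.

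**Figure D2:**
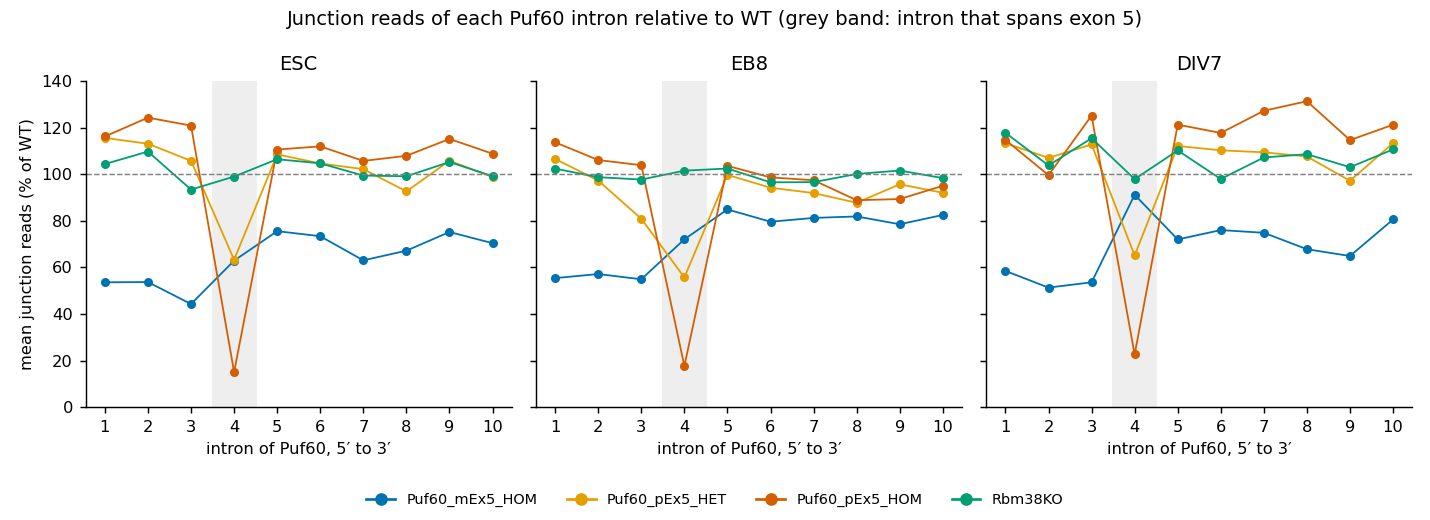
Spliced reads of each of the 10 Puf60 introns in the edited lines as percent of the WT mean, in order from 5′ to 3′, by stage. Values of Puf60_mEx5_HOM lie at 44.3 to 58.5% before exon 5 and at 63 to 84.9% after it, and Puf60_pEx5_HOM falls to 15.1 to 22.6% at the intron spanning the exon.

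At the intron that spans exon 5, whose reads count only the direct joining of exons 4 and 6, Puf60_pEx5_HOM stood at 15.1, 17.7 and 22.6% of WT. The summed level of Puf60 therefore depends in part on exon 5. Puf60_pEx5_HOM had 360 and 350 CPM at ESC, 291 and 314 at EB8 and 285 and 288 at DIV7, and at DIV7 its libraries lay above those of WT (0.19 ± 0.07, adjusted p = 0.0615). Without the spanning intron that difference was 0.25 (adjusted p = 0.0187). Leaving out WT B of DIV7 gave 0.25 (adjusted p = 0.0447). In Puf60_mEx5_HOM the change without that intron was -0.62, -0.43 and -0.57 at the 3 stages. Puf60_pEx5_HET and Rbm38KO did not pass the test for the Puf60 level, at -0.13 to 0.10.

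The choice between the alternative U2af1 exons differed between the libraries of WT and of Puf60_pEx5_HOM at each of the 3 stages. The measure used was the share of the first exon among reads at the upstream junctions of either exon. The WT libraries of ESC had 20.9 and 21.7%, those of EB8 41.1 and 42%, and those of DIV7 45.7 and 46.8%. Stem cells thus used mostly the second exon. In Puf60_pEx5_HOM the first exon had 47.8 and 43.6% at ESC, 55.8 and 54.8% at EB8, and 50.6 and 61.3% at DIV7. Every library lay above both WT libraries of its stage.

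The log2 ratio of first to second exon was chosen after the data were seen, so the p-values below lend no support of their own. It was higher in Puf60_pEx5_HOM by 1.64 at ESC, 0.80 at EB8 and 0.57 at DIV7, with a mean of 1.00 (exact permutation p = 0.00926, adjusted 0.037). The downstream junctions gave 1.17 (exact p = 0.00926). Puf60_pEx5_HET, at 30.6 and 26.9%, 43.2 and 47.9%, and 49.3 and 45.7%, differed by 0.57, 0.23 and 0.074, with a mean of 0.29 (exact p = 0.0185, adjusted 0.0556). That value was 0.31 at the downstream junctions (exact p = 0.0741) and 0.28 without WT A of DIV7 (exact p = 0.0556). Puf60_mEx5_HOM, at 19.4 and 20.5%, 45.2 and 45.3%, and 38.5 and 45.1%, differed by -0.057 on average (exact p = 0.611). Rbm38KO differed by 0.063 (exact p = 0.0648), and by 0.074 to 0.081 without Rbm38KO B at ESC, Rbm38KO A at EB8 or WT B at ESC (exact p = 0.037 to 0.0463).

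At ESC the change lay mainly in the first exon. Its upstream junction had 8.89 ± 0.65 CPM in WT and 23.6 ± 2.7 CPM in Puf60_pEx5_HOM (SD, n = 2), while that of the second exon was 32.8 ± 1.3 CPM in WT and 27.98 ± 0.053 CPM. Reads that skip both exons were more numerous as well. There were 104 and 67 reads at ESC in Puf60_pEx5_HOM against 14 and 6 in WT, 33 and 52 against 6 and 7 at EB8, and 39 and 69 against 12 and 12 at DIV7. As a share of reads leaving the upstream constitutive exon this was 5.22 ± 1.4%, 4.87 ± 1.9% and 10.5 ± 2.1%, against 0.82 ± 0.47%, 0.84 ± 0.18% and 3.12 ± 0.057%. At ESC the summed level of 4 fibroblast and smooth muscle markers was 36.9 to 64 CPM in Puf60_pEx5_HOM and 280 to 411.3 in WT, and at DIV7 that of 4 astrocyte markers was 85.3 to 202.3 against 392.9 to 533.3. Their part in the result was not tested.

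**Figure D3:**
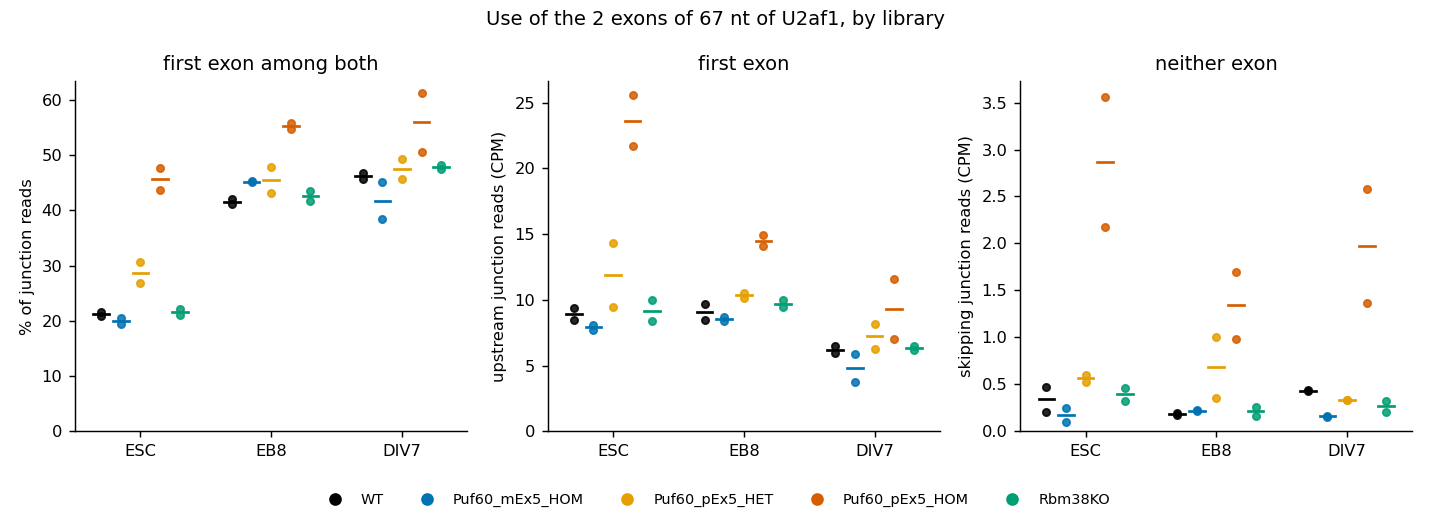
Share of the first of the alternative U2af1 exons among reads at the upstream junctions in percent (left), reads at the upstream junction of the first exon in CPM (middle) and reads that skip both exons in CPM (right), by stage. Points are libraries, colours are lines and short lines are means of 2. On the left WT lies between 20.9 and 46.8% across stages, and the libraries of Puf60_pEx5_HOM lie above WT at each stage in all 3 panels.

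The skipping also entered the PSI of the first exon, which the splicing table sets against skipping of both exons. In Puf60_pEx5_HOM it was 86.3 and 90.1% at ESC, 93.2 and 88.6% at EB8, and 84.3 and 79% at DIV7. In WT it was 94.1 and 97.5%, 97.9 and 97.5%, and 91.1 and 92.8%. The DIV7 change of -10.3 points was called (adjusted p = 0.0118), and the ESC change of -7.61 points passed the test without reaching 10 points (adjusted p = 0.0284). The other groups of ESC had means of 94.675 to 97.435%. At ESC the exon thus fell under the mean PSI of 95 that the fit allows only through Puf60_pEx5_HOM. The ESC p therefore lends no support of its own. The DIV7 call was lost without WT A, WT B or Puf60_pEx5_HOM B (adjusted p = 0.0649 to 0.172), and in the unweighted fit (adjusted p = 0.368). At DIV7 the exon was also higher in Puf60_mEx5_HOM than in Puf60_pEx5_HOM, by 14.4 points (adjusted p = 0.000798, or 0.0596 without Puf60_mEx5_HOM B), and in Puf60_pEx5_HET than in Puf60_pEx5_HOM by 13.2 points (adjusted p = 0.00413, or 0.138 without Puf60_pEx5_HET B). The unweighted fit called neither (adjusted p = 0.117 and 0.287).

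Across all events of the 8 genes, 23 to 26 could be tested in a comparison, of 22019 to 28069 events in all. To be called, an event had to differ by at least 10 points with an adjusted p under 0.05. Against WT, Puf60_pEx5_HOM had 1, 1 and 2 member events called at ESC, EB8 and DIV7, where 1.62, 2.48 and 1.62% of all events were called. All were exon 5 of Puf60 apart from the first U2af1 exon at DIV7. Puf60_mEx5_HOM had 1, 2 and 1, with a background of 0.00454, 0.859 and 0.101%, and these were exon 5 and, at EB8, its spanning intron. That intron entered the EB8 test only through the high values of this line. Puf60_pEx5_HET had exon 5 alone at each stage (background 0.0136, 0.0107 and 0.0188%). Rbm38KO had 0 called by limma, with 4 of 73 tests over the 3 stages at an unadjusted p under 0.05 and a background of 0, 0.00356 and 0%. Between Puf60_mEx5_HOM and Puf60_pEx5_HOM 1, 2 and 3 were called (background 2.73, 6.6 and 3.22%), and between Puf60_pEx5_HET and Puf60_pEx5_HOM 1, 1 and 2 (background 0.595, 2.89 and 0.451%).

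Of the other genes, Rbm39 has an exon of 73 nt at chr2:156178880-156178952 that is coding only in 4 transcripts annotated as targets of nonsense-mediated decay. In WT its PSI was 7.22 and 11.5% at ESC, 22.5 and 23.4% at EB8 and 19.2 and 23.8% at DIV7, a rise of 13.6 points at the first step (adjusted p = 8.98e-05). It was higher in Puf60_mEx5_HOM than in Puf60_pEx5_HOM at EB8, with 26.2 and 27.6% against 16.3 and 16.2% (10.6 points, adjusted p = 0.000291). The same held at DIV7, with 24.5 and 30.8% against 12.1 and 20.1% (11.6 points, adjusted p = 0.0237). The EB8 difference fell under 10 points, to 9.92, without Puf60_mEx5_HOM B. The DIV7 call was lost without Puf60_mEx5_HOM B or Puf60_pEx5_HOM A (adjusted p = 0.266 and 0.235), and in the unweighted fit (adjusted p = 0.366). Against WT, Puf60_pEx5_HOM differed by -6.73 points at EB8 (adjusted p = 0.022).

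The U2af1l4 exon rose in WT from 68.5 and 69.7% at ESC to 86.4 and 95.5% at EB8, by 21.9 points (adjusted p = 0.000671), and stood at 85.7 and 86.5% at DIV7. In Puf60_pEx5_HOM it was 82 and 80.3% at ESC, above all other ESC libraries, 12.0 points over WT (adjusted p = 0.0746). With the replicate letters as a block, which pair the ESC libraries, that p was 0.0322. On the same footing the exon differed from Puf60_pEx5_HOM by -11.9 points in Puf60_mEx5_HOM (adjusted p = 0.0568, 0.0223 with the block) and by -14.9 points in Puf60_pEx5_HET (0.0571, 0.0186 with the block). The U2af1l4 transcript was itself higher there. It had 46.3 RPKM in Puf60_pEx5_HOM at ESC against 34.9 in WT, and the authors' deposited table gave a log2 change of 0.50 (FDR = 0.00226).

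The 45-nt exon of U2af2 rose in small steps in WT, from 90.2 and 90.8% to 93.9 and 96%, and then to 97.7 and 98% (adjusted p = 0.00101 and 0.000881, under 10 points). In Puf60_pEx5_HOM at ESC it already stood at 95.2 and 95.5%, 4.86 points over WT (adjusted p = 0.000735). A 76-nt exon of Sf1 fell by 5.69 points from EB8 to DIV7 in WT, from 95.4 and 95.7% to 91.2 and 88.5% (adjusted p = 0.0003). The most variable cassette exons of Uhmk1 and Rbm17 were at least at 90.8 and 98.4% in every library. A pair of Rbm39 acceptors 18 nt apart, at chr2:156154239-156154289, shifted by 10.9 points in WT from ESC to EB8 (adjusted p = 0.0217). That call was lost without WT A or B of ESC or WT B of EB8 (adjusted p = 0.0737 to 0.193), and in the unweighted fit (adjusted p = 0.095). In the steps between WT stages 4 and 1 of 23 member events were called, against 13.4 and 16.7% of all events. The 4 were the exons of Rbm39 and U2af1l4 and both Rbm39 acceptors, which are 1 choice, and the last was Puf60 exon 5.

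**Figure D4:**
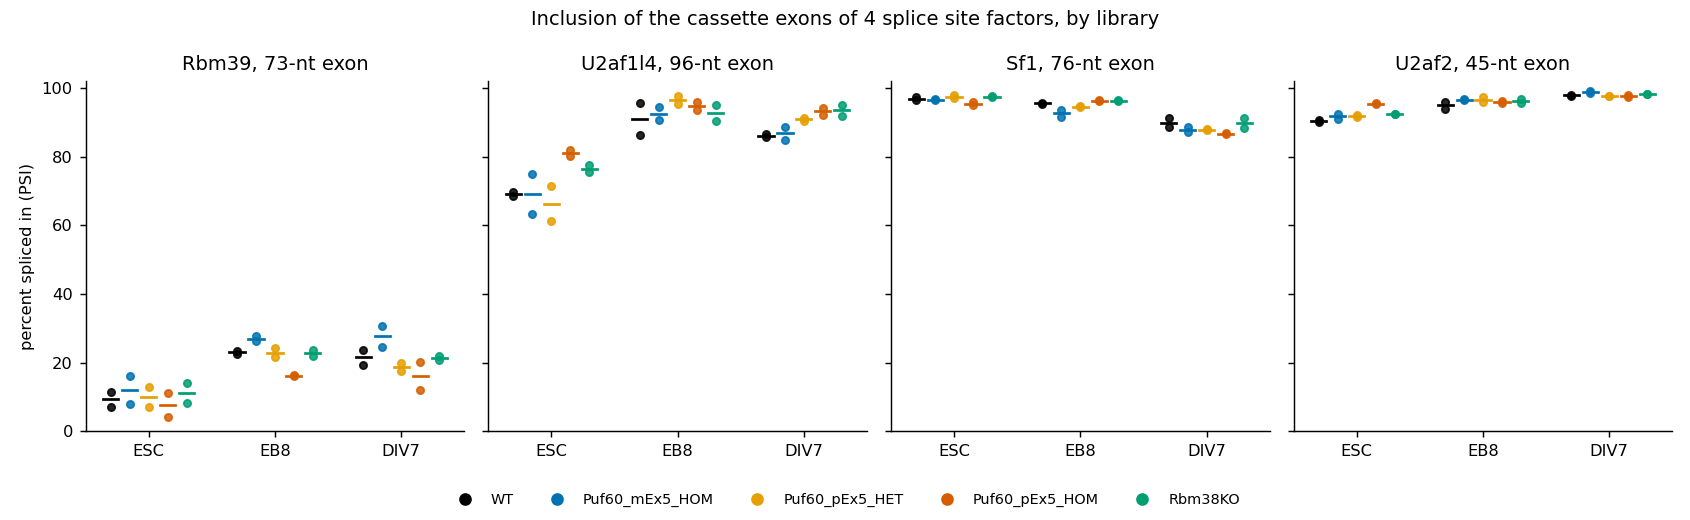
PSI in percent of the cassette exons of Rbm39, U2af1l4, Sf1 and U2af2 by library, line and stage, with short lines at means of 2. In WT the U2af1l4 exon moves from 68.5 and 69.7% at ESC to 86.4 and 95.5% at EB8, and the Rbm39 exon is highest at 30.8%, in a Puf60_mEx5_HOM library of DIV7.

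Levels over the WT course separated the genes. Per length, in the authors' deposited RPKM, the order at ESC in WT was U2af1 (313), U2af2 (280), Rbm39 (196), Sf1 (195), Puf60 (147), Rbm17 (143), U2af1l4 (34.9) and Uhmk1 (11.1). At DIV7 it was U2af2 (124), Rbm39 (116), Puf60 (105), U2af1 (84.1), Sf1 (81.8), Rbm17 (70.5), Uhmk1 (30.8) and U2af1l4 (23.4). With 1 value a group, neighbours in this order have no replicate spread and could not be told apart.

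By spliced reads U2af1, the AG-binding subunit, had 332 and 333 CPM at ESC, 165 and 145 at EB8 and 82.6 and 85.4 at DIV7. It fell by 1.10 ± 0.10 and by 0.87 ± 0.10 on the log2 scale (limma adjusted p = 9.4e-10 and 5.78e-08). The kinase gene Uhmk1 ran the other way, with 13 and 9.45, 24.5 and 24.4, and 35.7 and 30.6 CPM (1.08 ± 0.12, then 0.42 ± 0.12). Its second step lost significance without WT A of DIV7 (0.31, adjusted p = 0.0667) and under scaling to the total of reads (0.26, adjusted p = 0.0601). With the 1 intron of Uhmk1 that had most reads it was -0.24 (adjusted p = 0.711). At the step from ESC to EB8 U2af2 (-0.50 ± 0.09), Sf1 (-0.60 ± 0.08) and Rbm17 (-0.75 ± 0.07) fell too. Puf60 (-0.04 ± 0.07) and Rbm39 (0.01 ± 0.08) did not pass the test. At the step to DIV7 all 7 passed, with Puf60 at -0.37 ± 0.07, U2af2 at -0.54 ± 0.09, Sf1 at -0.73 ± 0.08, Rbm17 at -0.32 ± 0.07 and Rbm39 at -0.79 ± 0.08.

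So 1 of 7 rose and 4 fell at the first step, and 1 rose and 6 fell at the second. Of all genes 39.4% were higher and 39.2% lower at the first step, and 37.4 and 34.2% at the second. The median over the 7 genes was -0.50 and -0.54, and over all genes 0.027 and 0.016. These directions depend on scaling at the first step. Scaling to the total of reads moved the median of all genes to 0.42 at that step and to -0.11 at the next. At the first step that scaling gave U2af1 -0.61, Rbm17 -0.27, Sf1 -0.115, U2af2 -0.015, Uhmk1 1.53, Puf60 0.44 and Rbm39 0.495. Relative to the median of all genes U2af1 was at -1.03, Rbm17 at -0.69, Sf1 at -0.54, U2af2 at -0.44, Uhmk1 at 1.11, Puf60 at 0.024 and Rbm39 at 0.074. Under quantile scaling, not taken relative to a median, U2af1 (-0.60) and Rbm17 (-0.28) stayed lower and Uhmk1 higher (0.78). But U2af2 (0.28), Puf60 (0.53) and Rbm39 (0.59) were higher at EB8 and Sf1 was at 0.02. At the step to DIV7 the 7 directions were those given above under both scalings.

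**Figure D5:**
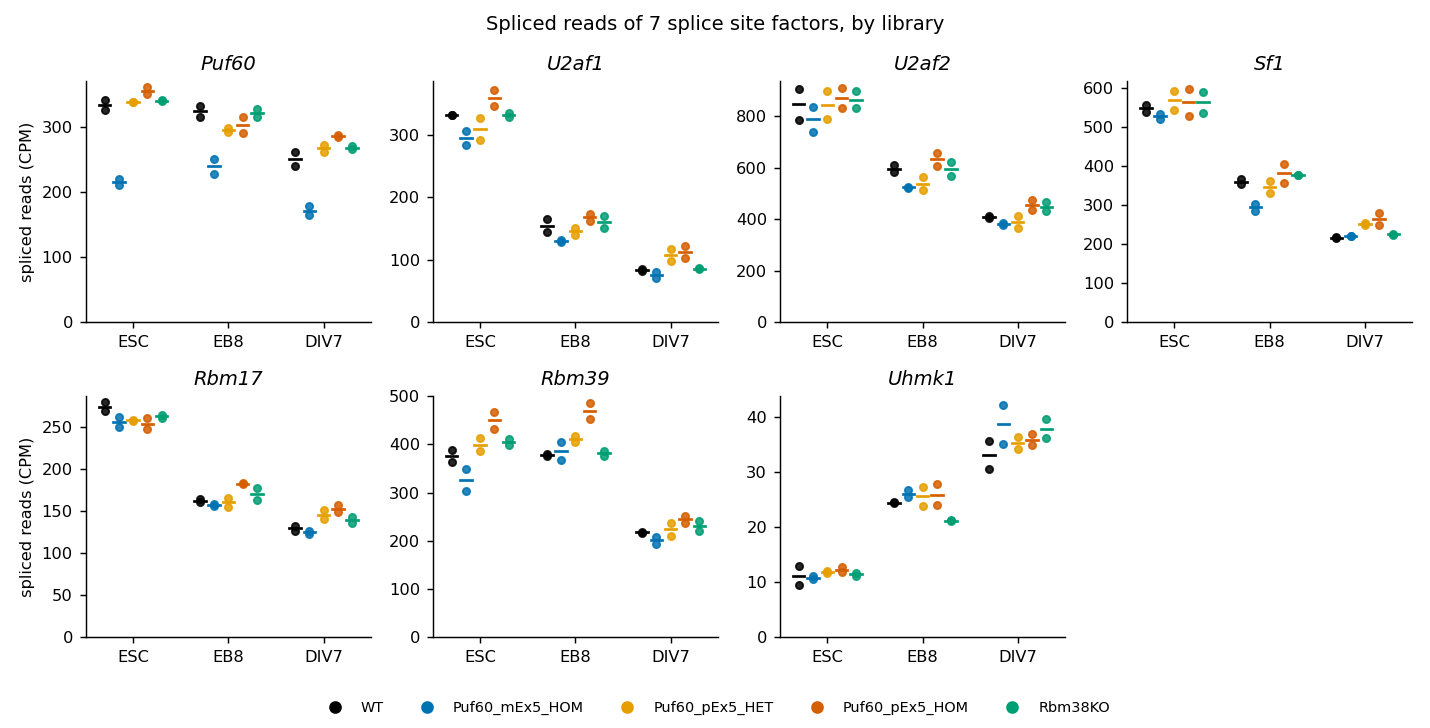
Spliced reads of the 7 genes with intron rows, in CPM, by library, line and stage, each gene on its own axis from 0, with short lines at means of 2. U2af1 falls from 332 and 333 CPM at ESC to 82.6 and 85.4 at DIV7 in WT, Uhmk1 rises, and Puf60 in Puf60_mEx5_HOM lies below the other lines at each stage.

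Among the edited lines, changes of the other genes were small. None of the 7 was called at 2-fold in the homozygous Puf60 lines against WT. Of all genes 0.079, 1.64 and 0.402% were called at ESC, EB8 and DIV7 in Puf60_mEx5_HOM and 2.46, 1.66 and 2.55% in Puf60_pEx5_HOM. At an adjusted p under 0.05 of any size, Puf60_mEx5_HOM had Puf60 lower at ESC, EB8 and DIV7, joined at EB8 by the branch point binder Sf1. Of all genes, 0.122, 6.39 and 0.66% were lower in that line and 0.165, 11.8 and 0.747% higher. Sf1 had 286 and 303 CPM there against 367 and 355 in WT (-0.29 ± 0.08, adjusted p = 0.0144), and -0.35 (FDR = 0.0338) in the authors' deposited table. The call was lost without WT A or Puf60_mEx5_HOM A (adjusted p = 0.13 and 0.108). The median over the 7 genes was -0.10, -0.19 and -0.10, and over all genes -0.0033, 0.023 and 0.011. At EB8 the summed level of 5 neuron markers was 1236 to 1437 CPM in this line and 838.3 to 947.6 in WT, and its part in the result was not tested.

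In Puf60_pEx5_HOM the genes that passed were all higher than in WT. They were Rbm39 at ESC and EB8, and U2af1, Sf1 and Rbm17 at DIV7. Of all genes, 9.1, 2.66 and 9.4% were higher at the 3 stages and 8.53, 7.57 and 6.41% lower. Rbm39, an RNA-binding protein with a U2AF homology motif, had 467 and 433 CPM at ESC against 387 and 363, and 486 and 453 at EB8 against 375 and 379. Its change of 0.26 ± 0.08 at ESC (adjusted p = 0.0304) was lost when any 1 of the 4 libraries was left out (adjusted p = 0.051 to 0.232). At EB8 the change of 0.31 ± 0.08 (adjusted p = 0.0152) was lost without WT A, WT B or Puf60_pEx5_HOM A (adjusted p = 0.0834 to 0.127).

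At DIV7 U2af1 had 104 and 121 CPM in Puf60_pEx5_HOM against 82.6 and 85.4 (0.41 ± 0.10, adjusted p = 0.00711). Without the introns beside the second alternative exon it was 0.46 (adjusted p = 0.00306). Sf1 had 250 and 280.1 against 218 and 216 (0.29 ± 0.08, adjusted p = 0.0193), and Rbm17 148 and 157 against 133 and 126 (0.24 ± 0.07, adjusted p = 0.0182). None of these groups overlapped. U2af1 lost its call without WT A or Puf60_pEx5_HOM B (adjusted p = 0.0744 and 0.116), and Sf1 and Rbm17 theirs without WT A, WT B or Puf60_pEx5_HOM B (adjusted p = 0.0629 to 0.2). With only the libraries of the stage, adjusted p was 0.081 to 0.132 for the 3 genes. Under scaling to the total of reads or quantile scaling Rbm39 at ESC (0.15 and 0.14) and Sf1 (0.18 and 0.17) and Rbm17 (0.13 and 0.13) at DIV7 no longer passed, and Rbm39 at EB8 (0.26, adjusted p = 0.0949) was lost under the second. The median over the 7 genes was 0.093, 0.085 and 0.19 at the 3 stages, and over all genes 0.006, 0.0037 and 0.044.

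Puf60_pEx5_HET and Rbm38KO had 0 of 7 genes past the test at any stage by limma, with 3 and 0 of 21 tests at an unadjusted p under 0.05. Of all genes 0.0718, 0.323 and 1.22% passed in Puf60_pEx5_HET and 0.115, 0.108 and 0.517% in Rbm38KO. U2af1 in Puf60_pEx5_HET at DIV7, at 97.6 and 118 CPM, gave 0.35 (limma adjusted p = 0.0942). A replicate block gave 0.0119. At DIV7 the letters A and B are only numbers (r over 0.1 in 4 of 10 pairs), so the blocked p lends no support. The U2af1 change was 0.49 without Puf60_pEx5_HET A. In the authors' deposited table of comparisons an FDR under 0.05 was given for 5 of 96 tests of the 8 genes, and these were the 3 of Puf60, that of Sf1 and that of U2af1l4 given above. Shares of all 25359 tested genes in that table were 0.197, 7.36 and 0.272% for Puf60_mEx5_HOM and 8.55, 4.87 and 4.98% for Puf60_pEx5_HOM. They were 0.0276, 0.0789 and 0.351% for Puf60_pEx5_HET and 0.0394, 0.0237 and 0.134% for Rbm38KO.

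Set against each other, the homozygous Puf60 lines differed in more of these genes. In Puf60_mEx5_HOM 2 of 7 were lower than in Puf60_pEx5_HOM at ESC, 6 at EB8 and 5 at DIV7, and none was higher. Of all genes 10.1, 19.3 and 11.2% were lower. Apart from Puf60 (-0.72, -0.34 and -0.74), Rbm39 passed at all 3 stages (-0.46, -0.28 and -0.29). U2af1 was at -0.37 and -0.58 and Sf1 at -0.37 and -0.26 at EB8 and DIV7, Rbm17 at -0.22 and -0.29, and U2af2 at -0.27 at EB8. U2af1 at ESC (-0.28, adjusted p = 0.0515) passed with the block that pairs the ESC libraries (adjusted p = 0.00616), and also without the introns beside its second alternative exon (-0.37, adjusted p = 0.00899).

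Leaving out 1 library of these groups ended several of the calls. U2af2 at EB8 was lost without Puf60_mEx5_HOM A or B or Puf60_pEx5_HOM B, Rbm17 without Puf60_mEx5_HOM B, and Rbm39 without Puf60_mEx5_HOM B or Puf60_pEx5_HOM A (adjusted p = 0.0653 to 0.164). At DIV7 Sf1 was lost without Puf60_mEx5_HOM A or B or Puf60_pEx5_HOM B, and Rbm39 without Puf60_mEx5_HOM A or Puf60_pEx5_HOM B (adjusted p = 0.0978 to 0.223). Between Puf60_pEx5_HET and Puf60_pEx5_HOM only Rbm17 at EB8 passed, lower at 165 and 155 CPM against 183 and 182 (-0.19 ± 0.07, adjusted p = 0.0404), with 10.5% of all genes lower and 13.8, 26 and 1.51% different in either direction at the 3 stages. It was lost without Puf60_pEx5_HOM A or B or Puf60_pEx5_HET B (adjusted p = 0.113 to 0.237). In the ESC block fit U2af1 was lower in Puf60_pEx5_HET as well (-0.21, adjusted p = 0.0393, and 0.174 without the block).

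A further list of 32 genes that act at 3′ splice sites, of which 30 could be tested, gives the wider setting. It holds subunits of U2 snRNP, helicases and competitors for the pyrimidine tract. In WT 4 of 30 rose and 22 fell from ESC to EB8, and 2 rose and 23 fell from EB8 to DIV7, with medians of -0.46 and -0.54. Of all genes 39.4% were higher and 39.2% lower at the first step (median 0.027), and 37.4 and 34.2% at the second (median 0.016). The direction at the first step depends on scaling. With scaling to the total of reads 9 of the 30 were higher and 13 lower there, with a median of 0.026 where that of all genes was 0.42, and with quantile scaling 9 and 11 (median -0.17, all genes -0.067). Of all genes 54.5% were higher and 24.8% lower with total scaling, and 35.6 and 40.2% with quantile scaling. At the second step 1 was higher and 27 lower under either scaling (medians -0.70 and -0.80, all genes -0.11 and -0.082). There 32.3 and 33.3% of all genes were higher and 40.8 and 39.8% lower. The largest 2-fold changes at the first step were those of Ptbp2 (2.45 ± 0.14), the neuronal form of a pyrimidine tract repressor, of its paralog Ptbp1 (-1.77 ± 0.20) and of Tia1 (1.58 ± 0.10). At the second they were those of Ptbp1 (-1.83 ± 0.20), the RNA-binding protein gene Elavl1 (-1.08 ± 0.11) and Snrpa1 (-1.08 ± 0.14), which encodes a U2 snRNP protein (limma adjusted p of these 6 from 5.87e-13 to 4.74e-07). These 6 kept their direction and passed the test under both scalings, with Ptbp1 just under 2-fold at the first step (-0.997) under quantile scaling.

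In Puf60_pEx5_HOM 7, 5 and 7 of the 30 were higher than in WT at ESC, EB8 and DIV7 and 0 were lower by limma, with medians of 0.084, 0.12 and 0.17. Of all genes 9.1, 2.66 and 9.4% were higher and 8.53, 7.57 and 6.41% lower (medians 0.006, 0.0037 and 0.044). With scaling to the total of reads 3, 3 and 1 of the list were higher and 1, 0 and 0 lower, with medians of -0.023, 0.096 and 0.070, where 5.35, 2.3 and 4.99% of all genes were higher and 12.4, 9.73 and 9.37% lower. With quantile scaling 2, 5 and 2 were higher and 0 lower, with medians of 0.0012, 0.11 and 0.077. Of all genes 7.32, 4.47 and 7.31% were then higher and 7.32, 8.13 and 6.58% lower. The median of the list at ESC thus changed sign with total scaling, where that of all genes was -0.063. The counts at ESC and DIV7 depend on scaling. In Puf60_mEx5_HOM 4 were lower at EB8 and 0 passed at ESC and DIV7 by limma, with 6 and 4 at an unadjusted p under 0.05 (medians -0.080, -0.11 and -0.044). Of all genes 0.122, 6.39 and 0.66% were lower and 0.165, 11.8 and 0.747% higher in that line (medians -0.0033, 0.023 and 0.011). With total and quantile scaling 6 and 7 of the list were lower at EB8 and 1 at DIV7. Of all genes 8.18 and 10.2% were lower at EB8 under these scalings, and 0.861 and 0.754% at DIV7. Ddx46, a helicase that acts with U2 snRNP at the branch point, was the 1 gene of the list that passed 2-fold in an edited line. In Puf60_pEx5_HOM at DIV7 it had a mean of 225 CPM against 94.5 in WT (1.24 ± 0.08, adjusted p = 1.34e-08). It was lower in Puf60_mEx5_HOM than in Puf60_pEx5_HOM by 1.08 at EB8 and 1.53 at DIV7. Against WT, Puf60_pEx5_HET had 1 gene of the list higher at DIV7 (limma adjusted p = 0.0498), where 0.194% of all genes were higher. Rbm38KO had 1 lower at ESC and 1 lower at DIV7 (limma adjusted p = 0.00628 and 0.0376). Of all genes 0.0718 and 0.431% were lower there.

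Over the 15 group means the genes fell into patterns that their levels describe. U2af1, U2af2, Sf1 and Rbm17 had Pearson r of 0.968 to 0.991 with each other, Uhmk1 had -0.974 to -0.962 with them, and Puf60 had 0.545 to 0.614. Groups of 1 line share cells and those of 1 stage share a culture condition, so no p is given. Among 10629 genes with a mean of at least 5 CPM, those most like U2af1 were Snrpc (0.999), Fbl (0.998) and Emg1 (0.998). Those most like U2af2 were Lsm2 (0.994), Rbm14 (0.994) and Hmgn1 (0.992). For Puf60 they were Mid1 (0.908), Uba1y (0.898) and Uty (0.88), of which the last 2 are Y-linked. Puf60 had group means of 216, 239 and 171 CPM in Puf60_mEx5_HOM and at least 250.8 in every other group. How far that 1 line carries the likeness was not tested.

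The effect of an edited line was compared between stages for the 7 genes, in 84 tests. Of these 14 had an unadjusted p under 0.05, and the 1 that passed adjustment over all genes was that of Rbm17 in Puf60_pEx5_HOM. Its effect was higher at DIV7 than at ESC by 0.35 ± 0.09 (adjusted p = 0.0186, where 11.3% of all genes passed). The plan held only differences between neighbouring stages, and in these Rbm17 did not pass in that line (limma adjusted p = 0.0532 and 0.71). Calls made at 1 stage and not at another, including those of Rbm39, U2af1 and Sf1 above, are therefore not shown to differ between stages.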

How the data were processed

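PolyA RNA was sequenced from 30 libraries in 15 groups. Per the submitters' processing notes, the tools included Salmon 0.14.1 and edgeR, and the build was mm10. The authors deposited RPKM values per gene and group, a table of log2 fold changes with p-values and FDR values, and a vast-tools splicing table per library with PSI in percent and junction reads in its quality strings. Whether counting used strand was not given in the sources used here.

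From these strings, spliced reads were summed per gene over its introns, scaled by median-of-ratios size factors and kept at 1 CPM or more in at least 2 libraries. This gave 13929 genes, fitted on log2(CPM + 1) with limma 3.58.1 in R 4.3.3 (trend, robust, all 30 libraries, 15 residual degrees of freedom, Benjamini-Hochberg adjustment). A 2-fold change was required for a call, and genes at an adjusted p under 0.05 were counted beside it. Splicing was fitted on log2((inclusion + 1)/(exclusion + 1)) with weights by read number, for events of mean PSI 5 to 95 that had 10 or more reads in each library.

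The genes and lists were chosen with earlier results of these data known. Named were all member genes, every member event called, the most variable exon of each, genes of the wider list past 2-fold (at most 3 a comparison) and the 3 genes most like Puf60, U2af1 and U2af2. The ratios along Puf60 and between U2af1 exons were chosen after the data were seen and tested by exact permutation of libraries within stages.

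At ESC libraries with the same letter deviated together (10 pairs, r = 0.321 to 0.53), which comes from the data and not from the labels, so ESC results carry the blocked value where it changes a call. On simulated data for Puf60_pEx5_HOM against WT at DIV7, the dispersion of expression was set to 0.02. The adjusted p passed for 8, 92, 100 and 100% of 50 genes changed by 0.5, 1, 1.5 and 2 on the log2 scale (18 of 13656 unchanged genes passed). Events were called for 4, 26, 52 and 68% of 50 changed by 10, 15, 20 and 30 points (1 of 26431 unchanged). The changed events were of intermediate mean PSI and were only raised. Their shares therefore do not cover exons of high PSI, such as those followed in U2af1, U2af2 and Sf1. Whether the shares for expression hold at the spread of the genes followed here was not tested. A table of PSI per group was not used, and the sequence of Puf60 exon 5 is not reported here. Alternatives included other scalings, filters, weights, single introns and each library left out.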

Additional observations from a re-analysis of the deposited data

Results flagged for a closer look

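The change of Rbm17 in Puf60_pEx5_HOM against WT differed between ESC and DIV7 by a test of the difference itself. It was -0.11 at ESC, 0.17 at EB8 and 0.24 at DIV7 on the log2 scale. By limma, DIV7 minus ESC was 0.35 ± 0.09 (SE, adjusted p = 0.0186). Both libraries of Puf60_pEx5_HOM lay below both WT libraries at ESC, at 260 and 247 CPM against 269 and 279, and above them at DIV7, at 148 and 157 against 133 and 126. Of 84 such differences over the 7 genes this was the 1 that passed. As 11.3% of all genes passed the same difference, 1 passing gene of 7 does not set these genes apart. The plan held only differences between neighbouring stages, and in these Rbm17 did not pass in this line (limma adjusted p = 0.0532 and 0.71). The nearest others were Rbm17 for EB8 minus ESC in the same line (0.28 ± 0.09, adjusted p = 0.0532) and Puf60 for DIV7 minus EB8 (0.29 ± 0.10, adjusted p = 0.0597).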

How the results depend on the processing

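Directions among the 7 genes turned at the step from ESC to EB8 in WT. Puf60 was at 0.44 with scaling to the total of reads and at 0.53 with quantile scaling, which also put U2af2 at 0.28 and Sf1 at 0.018. With 1 intron per gene Uhmk1 was at -0.24 from EB8 to DIV7. The count of genes past the test in the edited lines against WT, 9 over all comparisons, was 5 with only the libraries of the stage and 2 with 1 intron per gene, and that between the homozygous Puf60 lines, 13, was 7 with 1 intron. Over all genes in Puf60_pEx5_HOM against WT, 1267, 371 and 1310 were higher and 1188, 1054 and 893 lower by stage. With only the stage 1699, 304 and 274 were higher and 1405, 915 and 219 lower. With 1 intron 521, 88 and 472 were higher and 631, 476 and 435 lower. Between the homozygous lines 1411, 2689 and 1566 were lower in Puf60_mEx5_HOM, and 549, 1503 and 759 with 1 intron. Between Puf60_pEx5_HET and Puf60_pEx5_HOM the count of 1 became 0 with total scaling, 2 with quantile scaling, 0 with only the stage, 0 with 1 intron and 5 with the replicate block. At EB8, where that 1 gene was lower, 1457 of all genes were lower. That number was 1332 with total scaling, 2059 with quantile scaling, 1480 with only the stage and 541 with 1 intron. Puf60 in Puf60_mEx5_HOM was at -0.55 (adjusted p = 0.0825) at DIV7 with only the stage, and at -0.48, -0.29 and -0.29 with 1 intron. An unweighted splicing fit called 2 member events in the edited lines, 2 between Puf60_pEx5_HET and Puf60_pEx5_HOM and 3 in the WT steps. Shares of all events under that fit are not given here, so these counts are not read as particular to the members. For exon 5 the unweighted fit lost Puf60_mEx5_HOM (-12.8, -13.9 and -32.0 points, adjusted p = 0.463, 0.276 and 0.165), Puf60_pEx5_HET (27.7, 25.8 and 19.1, adjusted p = 0.319, 0.325 and 0.64) and Puf60_pEx5_HOM at DIV7 (50.5, adjusted p = 0.117). It also lost 1 intron, 3 U2af1, 1 Rbm39 exon and 2 Rbm39 acceptor calls and the DIV7 exon 5 call between Puf60_pEx5_HET and Puf60_pEx5_HOM. The U2af1 exon ratio of Puf60_pEx5_HET was 0.31 at the downstream junctions. The cause was not tested.

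With 1 library left out, the count between Puf60_pEx5_HET and Puf60_pEx5_HOM ran from 0 to 1 and that of WT step events from 3 to 5. Exon 5 ran from -14.1 to -11.5 points in Puf60_mEx5_HOM at ESC, from -14.3 to -13.5 at EB8, and from 16.7 to 21.5 in Puf60_pEx5_HET at DIV7. The log2 ratio along Puf60 in Puf60_pEx5_HOM ran from -0.030 to 0.14, its exon 5 junction ratio from -0.20 to -0.097, and the U2af1 exon ratio from 0.25 to 0.34 in Puf60_pEx5_HET and from 0.046 to 0.081 in Rbm38KO. A lone library was assumed to vary like the other groups. At EB8 and DIV7 the letters A and B are only numbers (r over 0.1 in 5 and 4 of 10 pairs). The replicate block moved 9 single expression tests and 3 splicing tests of members past the threshold and took none below it.

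Scaling moved the split of higher and lower genes. Of the wider list of 3′ splice site genes, 4 were higher and 22 lower from ESC to EB8, and 9 and 13 with total scaling, an alternative chosen after seeing the data. From ESC to EB8 in WT it was 5489 and 5459, with total scaling 7588 and 3457, and with quantile scaling 4961 and 5602. In Puf60_pEx5_HOM it was 1267 and 1188 at ESC and 1310 and 893 at DIV7, and with total scaling 746 and 1721, and 695 and 1305. Events under 10 reads in any library, the Puf60 intron at ESC and DIV7 and the PSI of the first U2af1 exon at EB8 were not tested.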
